A study of Homo sapiens with 26 samples.

Results

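The regions described here are sites listed for HNF4A near transcript starts at which no FOXA1 site was listed. They were chosen by 3 values of the deposited peak lists: a row in the HNF4A list, a row centre within 1000 bp of a transcript start of GENCODE release 44 (the GRCh37 version), and no shared base with any row of the FOXA1 list. The centre is the summit given by the authors where it falls inside the row and the midpoint otherwise. Of 38291 HNF4A rows, 14279 (37.3%) met the rule and are called members below. They made up 97.0% of the 14715 HNF4A rows at transcript starts, because FOXA1 rows overlapped 436 (2.96%) of them. Of the HNF4A rows farther from any start, FOXA1 rows overlapped 9.12%, so most HNF4A rows of both kinds lacked FOXA1. The FOXA1 list held 155652 rows. The rule thus fixed presence of HNF4A, nearness to a start and absence of FOXA1, and none of these is a finding. One further row met the distance rule on the mitochondrial chromosome and was left out.

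The study introduced proteins carrying a HALO tag into BJ fibroblasts, an established human line from foreskin, and mapped where they sat in the genome by ChIP-seq against the tag. HNF4A, FOXA1 and 3 FOXA1 constructs named FOXA1dbd, FOXA1nhaa and FOXA1rraa were each assayed after 48 hours of ectopic expression, in cells of the same line and with the same antibody. Each construct has 2 ChIP libraries and 2 input libraries in the labels but 1 list of peaks, and whether that list pools the libraries is not stated. All HNF4A row names share a prefix, while row names of the FOXA1dbd, FOXA1nhaa and FOXA1rraa lists mix several. What these prefixes stand for is not stated, so the lists may differ in how they were built. The 6 samples of tagged H2B were not used here. Ectopic expression in a line of this kind limits the data to what a tagged, introduced protein occupied in fibroblasts. The cell type could not be checked against markers, since peak lists hold no expression. With 1 list per construct there is no replicate error, so no p-value is given. The 95% intervals below are Wilson intervals for shares and order-statistic intervals for medians, and they cover counting error over rows only. The read depth behind the rows is unknown.

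HNF4A is a nuclear receptor that binds DNA as a homodimer at direct repeats of a short hormone-response word, and it is known for its role in liver, gut, kidney and pancreas. FOXA1 is a forkhead factor that can bind its sites in closed chromatin. Many mammalian promoters lie in CpG islands, stretches rich in G, C and the dinucleotide CpG that are often unmethylated and open in many cell types, while tissue-specific promoters are more often poor in CpG.

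Sequences are given first, to show what the centres of strong members hold. All are from GRCh37 (hg19), written 5′ to 3′ on the strand given in brackets, with 40 bases on each side of a capitalised match. The first set shows an HNF4-type core in capitals, defined as CAAAGTCCA or CAAAGGTCA or CAAAGTTCA on either strand, which are forms of the inner part of a direct repeat with a spacer of a single base. These are the 5 members with the highest −log10 q that hold such a core in the central 200 bp and could be printed without annotated UTR sequence.
SKIC2 chr6:31926997-31927085 (-): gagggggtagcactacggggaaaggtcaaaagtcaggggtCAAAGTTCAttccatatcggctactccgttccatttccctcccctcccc
ENSG00000272760 chr7:154742787-154742875 (-): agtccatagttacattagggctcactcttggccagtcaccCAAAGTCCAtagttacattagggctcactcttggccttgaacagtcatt
ZNF776 chr19:58258812-58258900 (+): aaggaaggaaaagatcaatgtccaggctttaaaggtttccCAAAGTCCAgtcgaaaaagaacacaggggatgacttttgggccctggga
PAOX chr10:135192046-135192134 (-): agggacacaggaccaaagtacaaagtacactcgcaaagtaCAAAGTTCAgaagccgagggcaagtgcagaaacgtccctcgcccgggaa
ZFP36L2 chr2:43453310-43453398 (+): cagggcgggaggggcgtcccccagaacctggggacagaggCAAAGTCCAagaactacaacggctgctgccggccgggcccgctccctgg

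SKIC2 encodes an RNA helicase of the Ski complex, and its member had a fold enrichment of 27.8 with its centre in a coding exon 165 bp downstream of the start. ENSG00000272760, a gene known only by its identifier, had a fold of 21.8 with the row centre at -20 bp from its start. ZNF776 encodes a zinc-finger protein, and its intronic member had a fold of 22.4. PAOX encodes a polyamine oxidase, and its member, centred at -693 bp from the start (upstream) and outside transcripts, had a fold of 20.3. ZFP36L2 encodes an RNA-binding protein that promotes mRNA decay, and its intronic member had a fold of 20.6. In these 5 members the core lay from 94 bp to one side of the row centre to 18 bp to the other. All fold enrichments and −log10 q values are the authors', 1 per row.

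The second set, chosen after the data were seen, shows the members with the highest −log10 q that held TGANTCA and could be printed in the same way. This is the AP-1 motif as searched here, again in capitals, and its middle letter may be any base. PRDM2 has TGAATCA, while ENSG00000250697 and MPZL1 have TGACTCA. In the leading 8-letter words given at the end, the middle letter of the AP-1 forms was C or G. Matches were not counted by middle letter. AP-1 is the Fos and Jun family, abundant in cultured fibroblasts.
PRDM2 chr1:14076182-14076268 (+): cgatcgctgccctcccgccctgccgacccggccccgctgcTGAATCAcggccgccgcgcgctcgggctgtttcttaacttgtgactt
ENSG00000250697 chr5:33050090-33050176 (+): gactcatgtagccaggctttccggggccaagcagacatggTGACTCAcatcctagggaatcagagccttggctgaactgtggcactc
MPZL1 chr1:167691818-167691904 (+): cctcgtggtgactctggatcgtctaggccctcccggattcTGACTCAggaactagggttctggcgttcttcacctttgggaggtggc

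Their folds were 36.4 for PRDM2, a gene of the PR-domain zinc-finger family, 27.2 for ENSG00000250697 and 25.7 for MPZL1, a cell-surface glycoprotein gene. All 3 row centres lay in introns.

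A forkhead core (TGTTTAC or TATTTAC) is the kind of word that forkhead factors bind. The member with the highest −log10 q that had one was at FNIP1, which encodes a folliculin-interacting protein, with a fold of 21.9 and a rank of 133 among all HNF4A rows.
FNIP1 chr5:131132240-131132326 (-): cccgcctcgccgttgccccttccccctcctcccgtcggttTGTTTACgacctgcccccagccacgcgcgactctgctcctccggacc

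The last set, also chosen after the data were seen, shows the central 90 bp of the members with the highest −log10 q that matched none of the 12 motifs searched. The capitals in NDUFAB1 mark CAAAGTCCC, which differs from the core CAAAGTCCA by a single letter. MIIP held no such variant in its central 200 bp.
NDUFAB1 chr16:23607466-23607555 (+): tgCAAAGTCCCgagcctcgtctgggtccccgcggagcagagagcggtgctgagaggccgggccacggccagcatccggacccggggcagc
MIIP chr1:12079995-12080084 (+): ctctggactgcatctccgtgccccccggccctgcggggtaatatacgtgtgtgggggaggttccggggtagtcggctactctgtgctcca

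The members with the highest −log10 q included genes of varied function. NDUFAB1, which encodes the mitochondrial acyl carrier protein and a part of respiratory complex I, had the highest −log10 q of all HNF4A rows, 207.8, with a fold of 42.9 and a centre 87 bp downstream of the start in a coding exon. MIIP followed among the members with a fold of 40.6 and a −log10 q of 175.8. NID2, a basement membrane gene, and YAP1, the coactivator of the Hippo pathway, each had a fold of 36.2 and a −log10 q of 172.2. PRDM2 had a fold of 36.4 and a −log10 q of 168.4. These 5 rows ranked between 1 and 7 among all HNF4A rows.

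RCOR3, a corepressor gene of the CoREST family, had a −log10 q of 168.2 at a lower fold of 28.8. ENSG00000279964 had a fold of 37.0 and a −log10 q of 166.5. BCL3, an IκB family gene, had a fold of 36.4 and a −log10 q of 152.2. The 10 members with the highest −log10 q were completed by PRKG1, which encodes a cGMP-dependent kinase and had a fold of 32.9, and by TAGLN2, an actin-binding protein gene with a fold of 35.8. Of these 10 members, 8 had a CpG-rich centre, defined as a central 200 bp with at least 50% G+C and a ratio of observed to expected CpG of at least 0.6, where 61.1% of all members did. None of the 10 had an HNF4-type core or a forkhead core. An AP-1 match was in 1 (PRDM2, as TGAATCA), the receptor hexamer AGGTCA in 2 (PRDM2 and TAGLN2) and a single-letter core variant in 1 (NDUFAB1). At the other end, 9 members shared the lowest −log10 q, 2.010, among them a row at KIAA0040 with a fold of 3.08.

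Over all members the median fold was 6.10 (95% interval 6.02 to 6.16), with quartiles of 4.80 and 8.47. Distal HNF4A rows without FOXA1, those farther than 1000 bp from any start, had a median of 5.80 (5.73 to 5.84), and HNF4A rows at starts that FOXA1 overlapped had 6.27 (6.06 to 6.55). The intervals of the members and of the overlapped rows at starts shared values, while that of the distal rows lay below both. The median −log10 q was 10.5 in the members, 12.2 in the overlapped rows at starts and 9.84 in the distal rows. Member rows were wider than distal ones, with medians of 337 bp and 269 bp. Among the 100 HNF4A rows with the highest −log10 q, 60 were members (60.0%, 50.2 to 69.1), against 37.3% of all rows.

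Values on the 2 sides of each limit of the rule were close to each other. The 199 members in the last 50 bp inside the distance limit had a median −log10 q of 10.9 and a median fold of 6.16, and the 181 FOXA1-free rows in the first 50 bp beyond it had 10.7 and 6.08. The 94 members with a FOXA1 row within 50 bp had medians of 13.8 and 6.91, and the 81 rows at starts that shared 1 to 50 bp with a FOXA1 row had 12.3 and 6.36. The median gap to the nearest FOXA1 row was 5970 bp from members and 7040 bp from distal FOXA1-free rows. Of members 15% (14.5 to 15.6) had one within 1 kb, against 13.6% (13.2 to 14.1) of those distal rows. The gap that the size of the FOXA1 list alone, 155652 rows, would give was not computed.

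**Figure D1:**
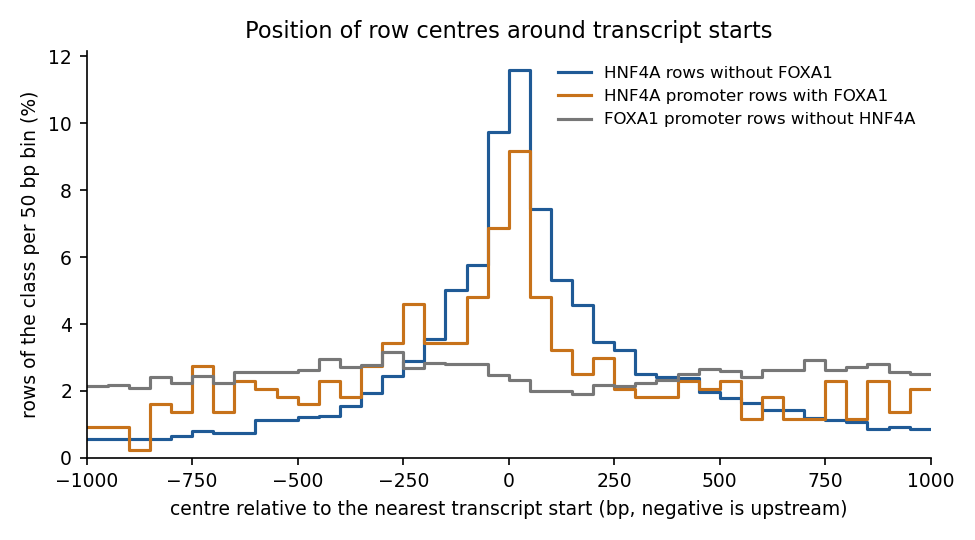
Position of row centres relative to the nearest transcript start. The x axis gives the signed distance in bp, negative upstream, and the y axis the percentage of each class in 50 bp bins. HNF4A rows without FOXA1 (blue, 14279) peak at the start, where 34.6% lie within 100 bp. HNF4A rows with FOXA1 (orange, 436) peak there with a lower share, and FOXA1 rows without HNF4A (grey, 13366) show no peak.

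Within the 1000 bp that the rule allowed, members gathered at the start itself. Their median distance was 180 bp, 34.6% lay within 100 bp and 80.3% within 500 bp. HNF4A rows at starts overlapped by FOXA1 had a median distance of 283 bp. FOXA1 rows at starts that HNF4A did not overlap had a median of 499 bp, and 9.60% of those lay within 100 bp, as the plot of distances shows. The FOXA1 list gives no summit, so its distances are those of row midpoints. More members lay downstream of the start (56.7%) than upstream (42.8%). The centre fell in an intron for 41.4% of members, in a UTR for 22.0%, in a coding exon for 8.45%, in another exon for 13.7% and outside transcripts for 14.4%.

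The nearest gene was protein-coding for 80.1% of members and a long non-coding RNA gene for 16.0%. Members lay within 1000 bp of a start of 9412 of 20136 protein-coding genes (46.7%). Of these genes, 5867 had 1 member, 2550 had 2 and 995 had 3 or more. There were 1407 members (9.85%) near starts on both strands belonging to 2 or more protein-coding genes, where the row cannot be assigned to a single gene. Of the genes with a member, 33.4% also had a separate FOXA1 row within 1000 bp of a start, against 16.6% of the 10724 genes without a member. The absence of FOXA1 therefore describes the row and not the whole promoter. Members and FOXA1 rows were both counted over all starts of a gene, and both were more frequent at CpG-rich promoters. FOXA1 rows were at 29.4% of CpG-rich promoters and 14.7% of the others, and members at 61.0% and 18.0%. The part of the number of starts and of CpG content in the contrast between genes was not tested.

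The members differed from the other HNF4A rows in base composition. Their central 200 bp had a median G+C content of 65.0%, and 8729 of them (61.1%, 60.3 to 61.9) were CpG-rich. In the HNF4A rows at starts that FOXA1 overlapped, the median was 47.5% and 18.3% (15 to 22.3) were CpG-rich. Distal HNF4A rows without FOXA1 had a median of 49.5% with 3.82% CpG-rich. FOXA1 rows at starts without HNF4A had 33.0% G+C, and 0.501% of them were CpG-rich. The interval of the members did not overlap any of these.

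The CpG-rich share of the members, 61.1%, was below that of windows at protein-coding starts, but the windows were placed differently. In the 200 bp at a single start per protein-coding gene, 68.2% of 19856 windows were CpG-rich, with a median G+C of 66.5%. Member windows were read at row centres, a median of 180 bp from a start of any gene type. With starts of protein-coding transcripts alone, 70.5% of members were CpG-rich. The part of window placement and gene type in these shares was not tested. Among the windows of genes with no HNF4A row near any start, 50.2% were. Since members were 97.0% of the HNF4A rows at starts, removing the FOXA1-overlapped rows could change the composition of that set little. The overlapped rows were closer in G+C to the distal HNF4A rows than to the FOXA1 rows. How far base composition affects the listing of rows was not tested.

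**Figure D2:**
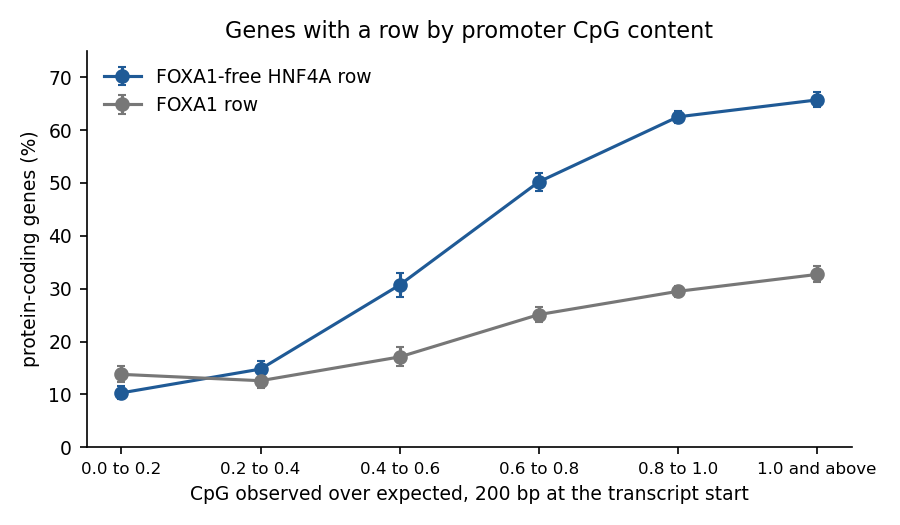
Share of protein-coding genes with a FOXA1-free HNF4A row (blue) or a FOXA1 row (grey) within 1000 bp of any start, by the ratio of observed to expected CpG in the 200 bp at a single start per gene. Points are percentages of the genes in each of 6 bins and bars are 95% Wilson intervals. The blue line climbs from 10.3% to 65.7% and the grey line from 13.8% to 32.7%.

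Genes were more often marked by a member as their promoter CpG content rose. CpG content was read at a single start per gene, while a row near any start of the gene counted. The row therefore need not lie in the window whose CpG content was read. A member was present at 10.3% of genes with a ratio of observed to expected CpG below 0.2, at 30.7% for ratios from 0.4 to 0.6 and at 65.7% for ratios of 1.0 and above. The share with a FOXA1 row went from 13.8% to 32.7% over the same bins. Among CpG-rich promoters, 8259 of 13548 had a member (61.0%, 60.1 to 61.8) and 29.4% had a FOXA1 row. Among the other promoters, 18.0% (17.0 to 18.9) had a member and 14.7% had a FOXA1 row.

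The CpG-rich members differed from the remaining 5550 in position more than in strength. The split was made after the data were seen. Of the CpG-rich members 44.2% lay within 100 bp of a start, and of the others 19.7%, and their median width was 371 bp against 298 bp. The median fold was 6.25 in the CpG-rich members and 5.97 in the others. By quintile of −log10 q, from lowest to highest, the share of CpG-rich members was 63.4% (61.6 to 65.2), 58.5% (56.7 to 60.3), 59.2%, 60.6% and 63.9%, with no steady direction.

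HNF4-type cores were rare in the members but sat at their centres. A core was present in the central 200 bp of 242 members (1.69%, 1.5 to 1.92). Windows of the same size 400 bp to either side had one in 0.546%, a ratio of 3.1, and protein-coding promoter windows in 0.509%. The core was less frequent than in distal HNF4A rows without FOXA1, of which 3.03% (2.81 to 3.27) had one, and than in the 436 overlapped rows at starts, with 3.90% (2.45 to 6.16). The flanks of these 2 classes also held it more often, in 0.873% and 0.803%, so their ratios of centre to flank were 3.47 and 4.86. FOXA1 rows at starts without HNF4A had 0.696%. The 3 forms were found in 98 members for CAAAGTCCA, in 82 for CAAAGGTCA and in 62 for CAAAGTTCA. CAAAGGTCA holds the receptor hexamer AGGTCA, so searches for these overlap.

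**Figure D3:**
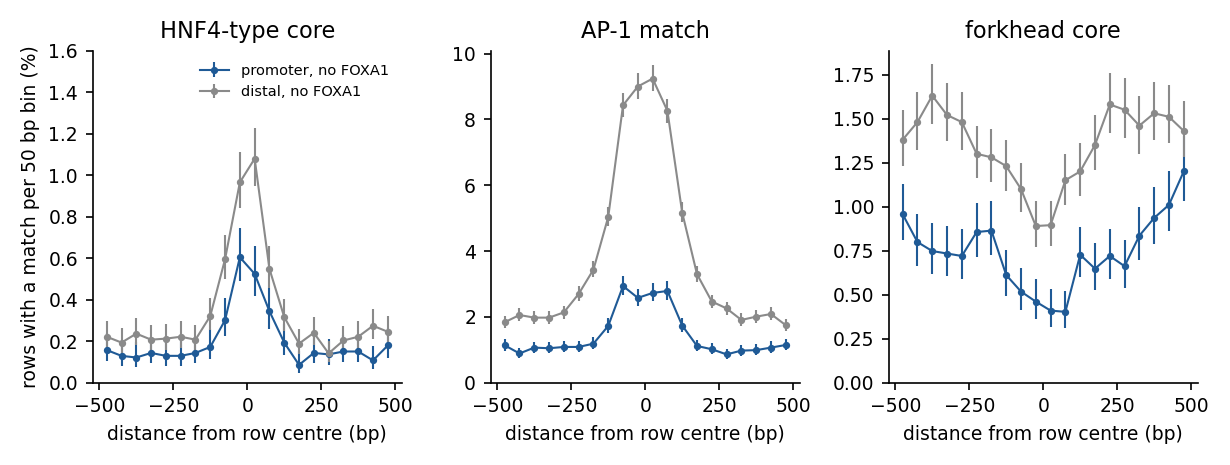
Share of rows with a motif match in 50 bp bins around the row centre, for HNF4A rows without FOXA1 at starts (blue, 13895 members whose summit lies inside the row) and distal ones (grey). The x axis is the distance from the centre in bp, the y axis a percentage with 95% Wilson intervals, on a separate scale in each panel. The HNF4-type core is highest in the central bins in both classes. The AP-1 match is raised over the central 200 bp in both, as a plateau from 2.58% to 2.94% in the blue class, and the forkhead core is lowest near the centre.

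Among members with a summit inside the row, the core reached 0.605% in the bin just before the centre and 0.525% in the bin just after it. In the bin that starts 500 bp before the centre it was 0.158%. The core was found in 0.813% (0.645 to 1.02) of CpG-rich members and in 3.08% (2.66 to 3.57) of the others. The members poor in CpG thus had the core about as often as distal rows without FOXA1, with intervals that overlap. By −log10 q, the share was 1.19% (0.853 to 1.66) in the lowest quintile of the members and 2.17% (1.70 to 2.77) in the highest. Row width also moved with −log10 q, from a median of 221 bp to 563 bp, although the searched window was 200 bp in all, and its part in the result was not tested.

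A looser search, added after the data were seen, counted CAAAGTCCA and all of its single-letter variants. It matched 1436 members (10.1%, 9.57 to 10.6) against 4.1% (3.88 to 4.34) of flanking windows, a ratio of 2.45, and 3.52% of protein-coding promoters. The ratio of centre to flank was 1.77 in CpG-rich members (6.03% against 3.41%) and 3.16 in the others (16.4% against 5.19%). The most frequent form was CAGAGTCCA, in 155 members (1.09%) with a ratio of 4.37. From the lowest to the highest quintile of −log10 q the share of members was 7.07%, 8.51%, 10.5%, 10.8% and 13.4%. The hexamer AGGTCA was in 14.3% of members, 10.5% of flanking windows and 6.76% of promoters. Promoter windows were centred on the start, and their own flanks held it in 10.3%. The part of window placement in the lower promoter share was not tested.

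**Figure D4:**
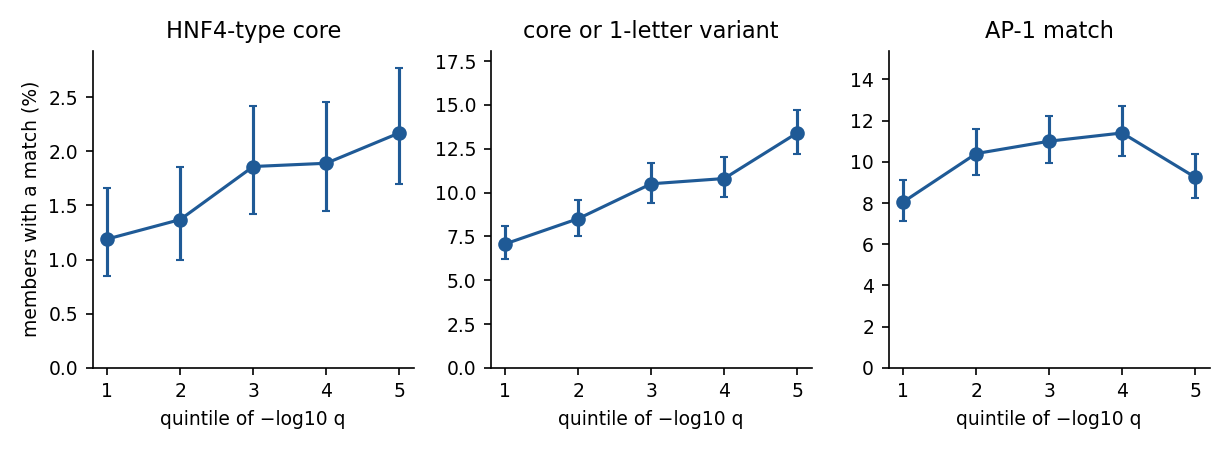
Share of members with a match in the central 200 bp by quintile of −log10 q, from lowest (1) to highest (5), about 2856 members each. Points are percentages and bars 95% Wilson intervals, each panel on its own axis from 0. The HNF4-type core goes from 1.19% to 2.17%, the core or a single-letter variant from 7.07% to 13.4%, and the AP-1 match is highest in quintile 4 at 11.4%.

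After the HNF4-type core, the AP-1 motif had the highest ratio of centre to flank among the 12 motifs in the members. TGANTCA was in 1434 of them (10.0%, 9.56 to 10.5), in 3.88% of flanking windows, a ratio of 2.59, and in 3.05% of promoters. Distal HNF4A rows without FOXA1 had it in 31.3%, and overlapped rows at starts in 21.6%. Within the members it was found in 2.97% of CpG-rich centres and in 21.2% (20.1 to 22.3) of the others. It did not climb steadily with −log10 q: quintile 1 had 8.05%, quintile 4 had 11.4% and quintile 5 had 9.25%. An HNF4-type core and an AP-1 match stood together in 35 members, and 12638 members (88.5%) had neither.

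Forkhead cores were less frequent at the member centres than around them, as the profiles show. One was present in 240 members (1.68%, 1.48 to 1.91), in 3.36% of flanking windows and in 2.06% of promoters. In the HNF4A rows at starts that FOXA1 overlapped the share was 7.34% (5.25 to 10.2), with 7.11% in their flanks, a ratio of 1.03. The core was thus not raised at the centres of the overlapped rows over their own flanks. In FOXA1 rows at starts without HNF4A the share was 18.5%, with 8.64% in their flanks, a ratio of 2.14. The rule separated these classes by FOXA1 overlap, so the difference in their shares is a description. Among centres that were not CpG-rich it was 2.65% (2.26 to 3.1) against 7.87% (5.50 to 11.1), although their median G+C still differed, at 54.5% and 45.5%. Among CpG-rich centres it was 1.07% (0.871 to 1.30) against 5.00% (2.0 to 12.2), the latter from 4 of 80 rows. The core TATAAA, an AT-rich word like the forkhead core, was also less frequent at the centres, with 2.10% against 6.26% in the flanks, so the lower share was not limited to forkhead cores.

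Motifs of common promoter factors were present, but less often than in windows centred on protein-coding starts. Member windows were centred on the row instead, at a median of 180 bp from a start. Around protein-coding starts each of the words below was less frequent 400 bp away, for example ETS with 2.65% and NRF1 with 1.41%. The part of window placement in the lower shares was not tested. The members held the SP/KLF word GGGGCGGG in 15.9% and the promoters in 26.2%. The ETS word CCGGAAG was in 6.86% of members and 11.3% of promoters, the NFY word CCAAT in 14.1% and 25.1%, and the NRF1 word GCGCNTGCG in 2.87% and 7.95%. The YY1 word AAGATGGCG was in 0.665% and 2.72%, the E-box TCACGTG in 1.62% and 3.48%, the CRE word TGACGTCA in 0.623% and 2.0%, and the ZNF143 word CTACAATTC in 12 members (0.0840%) and 0.171% of promoters. Against the flanking windows, the ratio at the centres was 1.87 for ETS, 1.44 for SP/KLF, 1.42 for CRE, 1.26 for NRF1, 1.09 for the E-box and 1.09 for YY1, and it was below 1 for NFY, at 0.774, and ZNF143, at 0.686. None of the 12 motifs was found in 7635 members (53.5%). All searches covered both strands, and a match is a description of letters only.

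The FOXA1 constructs rarely occupied the members. FOXA1nhaa rows overlapped 151 members (1.06%, 0.902 to 1.24), where 5.29% of all HNF4A rows were overlapped. FOXA1rraa rows overlapped 34 (0.238%, 0.170 to 0.333), against 3.82% of all HNF4A rows, and FOXA1dbd rows overlapped 6 (0.0420%, 0.0193 to 0.0917), against 3.22%. The rule had already removed rows shared with FOXA1, and FOXA1 rows overlapped 58.4% of FOXA1nhaa rows, 86.8% of FOXA1rraa rows and 96.2% of FOXA1dbd rows, so the rule itself lowered these counts. Distal rows without FOXA1 passed the same exclusion, and their shares were 3.08% (2.86 to 3.32) for FOXA1nhaa, 0.901% (0.783 to 1.04) for FOXA1rraa and 0.308% (0.242 to 0.392) for FOXA1dbd. Each interval lay above that of the members.

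In all, 165 members were overlapped by at least 1 of the 3 constructs, and 125 of them by FOXA1nhaa alone. FOXA1nhaa and FOXA1rraa shared 25. The highest of the members that both overlapped lay 9 bp downstream of the start of LINC01818, a long non-coding RNA gene, with a fold of 17.8 and a −log10 q of 78.68. The highest with FOXA1dbd lay at ENSG00000280159, with a fold of 8.18 and a −log10 q of 19.95. Members overlapped by FOXA1nhaa had a median −log10 q of 11.4 and the rest 10.5.

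**Figure D5:**
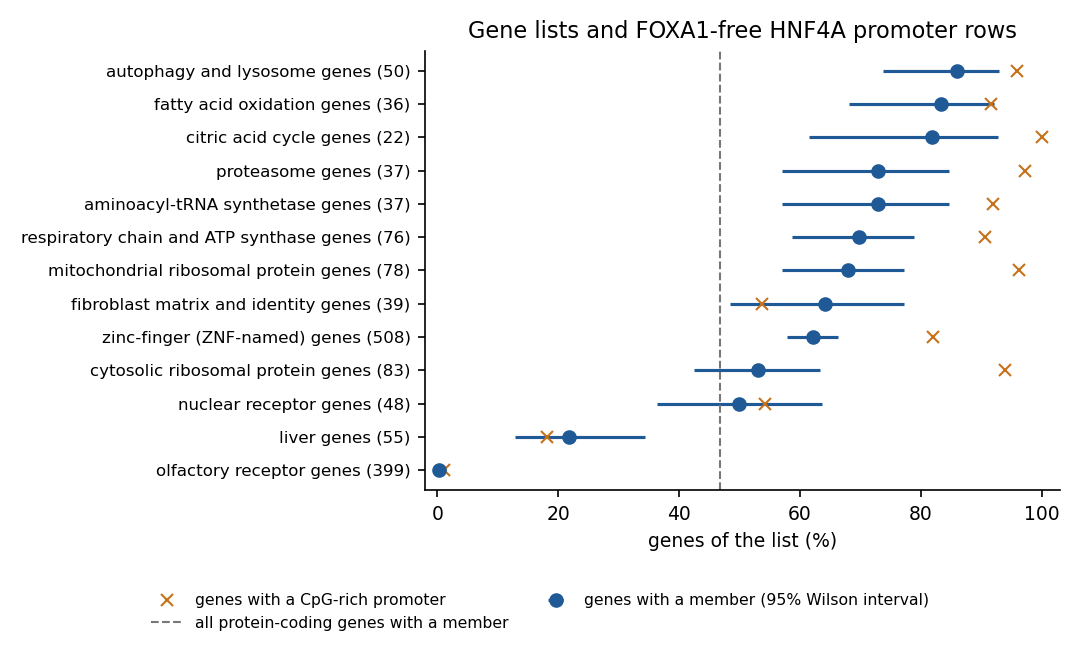
Percentage of genes of each of 13 lists with a FOXA1-free HNF4A row within 1000 bp of a start (blue points, 95% Wilson intervals), with the percentage that have a CpG-rich promoter (orange crosses). The dashed line is 46.7%, the share over all protein-coding genes, and numbers in brackets are genes. Lists of mitochondrial, lysosomal and proteasome genes lie to the right of the line and liver and olfactory receptor genes to the left.

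Gene lists were read against 46.7%, the share of all protein-coding genes with a member, and against 61.0% over those with CpG-rich promoters, a split added after the data were seen. The lists were chosen with earlier results of these data known, so their shares are descriptions and not tests. Autophagy and lysosome genes had the highest share, 43 of 50 (86.0%, 73.8 to 93.0). CTSZ, a lysosomal cathepsin, had a fold of 23.6, SQSTM1, the autophagy receptor p62, a fold of 22.4, and NPC1, a cholesterol transporter of the lysosome, a fold of 19.1. Among their 48 CpG-rich promoters, 87.5% (75.3 to 94.1) had a member, so the share stood above the background of that class too.

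Fatty acid oxidation genes had a member at 30 of 36 (83.3%, 68.1 to 92.1), and at 84.8% (69.1 to 93.3) of those with CpG-rich promoters. HADHA and HADHB encode the mitochondrial trifunctional protein, and both starts were near the same row, with a fold of 31.6 and a −log10 q of 147.4, which counts once as a site. ACSL1, which activates long-chain fatty acids, had a fold of 24.6. The median −log10 q of the highest member per gene was 19.98 in this list, the highest of the 13 lists, and 13.2 over all genes with a member. The row shared by HADHA and HADHB entered that median for each gene. Other lists lay on both sides of 13.2, for example autophagy and lysosome genes at 11.79 and aminoacyl-tRNA synthetase genes at 14.81. Citric acid cycle genes had a member at 18 of 22 (81.8%, 61.5 to 92.7), all with CpG-rich promoters. In that list DLST, a subunit of oxoglutarate dehydrogenase, had a fold of 26.9, SDHA, the flavoprotein of complex II, 22.7, and SDHD, its membrane anchor, 12.4.

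Respiratory chain and ATP synthase genes had a member at 53 of 76 (69.7%, 58.7 to 78.9). SDHA is also in this list, NDUFAB1 was not among its names, and NDUFB10 of complex I and COX5A of complex IV had folds of 22.1 and 18.6. Mitochondrial ribosomal protein genes had one at 53 of 78 (67.9%, 57.0 to 77.3), with folds of 23.4 at MRPL20, 17.4 at MRPS31 and 16.2 at MRPL40. Proteasome genes had one at 27 of 37 (73.0%, 57.0 to 84.6), led by PSMD7 with a fold of 11.4, PSMD9 with 10.3 and PSMC5 with 10.0. Aminoacyl-tRNA synthetase genes also had 27 of 37, among them YARS2, a mitochondrial synthetase gene, with a fold of 11. All of these lists consist largely of CpG-rich promoters, and within that class their intervals all included 61.0%.

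Cytosolic ribosomal protein genes had a member at 44 of 83 (53.0%, 42.4 to 63.4), with an interval that held the background, although 94.0% of their promoters were CpG-rich. RPL7A had a fold of 26.9 and RPLP2 one of 14.9. Zinc-finger genes had a member at 316 of 508 (62.2%, 57.9 to 66.3), with folds of 26.9 at ZNF436, 16.6 at ZNF699 and 22.4 at ZNF770. Their share was 66.2% (61.5 to 70.6) among CpG-rich promoters and 44.4% (34.6 to 54.7) among the others. FOXA1 rows were present at 15.9% of that list, against 24.5% of all protein-coding genes.

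Fibroblast matrix and identity genes had a member at 25 of 39 (64.1%, 48.4 to 77.3), among them PRRX1 and TWIST2, transcription factors of mesenchymal cells, with folds of 13.2 and 15.2, and COL6A1, a collagen gene, with 14.6. SPARC, a matrix glycoprotein gene, tied with COL6A1 at a −log10 q of 41.53. Of the 18 genes of this list without a CpG-rich promoter, 9 had a member (50%, 29.0 to 71.0), against 18.0% of all such genes. Nuclear receptor genes had one at 24 of 48 (50%, 36.4 to 63.6), led by NR2F6, the retinoic acid receptor RARA and the estrogen-related receptor ESRRA with folds of 20.3, 18.2 and 17.6. Olfactory receptor genes had 1 of 399 (0.251%, 0.0443 to 1.41), at OR56B1 with a fold of 3.59. CpG-rich promoters made up 1.03% of that list.

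Liver genes, which include well-known targets of HNF4A in hepatocytes, had a member at 12 of 55 (21.8%, 12.9 to 34.4), below the share over all genes. CpG-rich promoters made up 18.2% of the list. Within each promoter class the interval held the share over all genes of that class: 5 of 10 CpG-rich promoters had a member (50%, 23.7 to 76.3, against 61.0%), and 7 of the 45 others (15.6%, 7.75 to 28.8, against 18.0%). FOXA1 rows were present at 16.4%. The highest was F10, coagulation factor X, with a fold of 15.6, a −log10 q of 60.56 and a centre 4 bp upstream of the start. ASS1, a urea cycle enzyme gene, had a fold of 10.3. CYP27A1, which encodes a sterol hydroxylase of bile acid synthesis, and KHK, the ketohexokinase gene, each had a fold of 10.7.

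CES2, a carboxylesterase gene, had a fold of 7.79, SERPINA1, the antitrypsin gene, 8.36, SERPINC1, the antithrombin gene, 5.37, and APOM, an apolipoprotein gene, 5.05. MTTP, needed for lipoprotein assembly, had a fold of 4.89, the transcription factor gene CEBPA 4.18 and APOB, the structural protein of lipoproteins, 3.88. These 7 were spread around the median member fold of 6.10, with 2 of them above it.

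The twelfth liver gene was HNF4A itself, and its row needs a limit. Its fold was 2.52 at a −log10 q of 7.197, and its centre lay 1 bp from a transcript start. The HNF4A list held 11 rows in the HNF4A gene, and 10 of them, this one included, overlapped a coding exon, with folds from 2.15 to 3.32. The HNF4A construct was introduced into these cells, and whether reads from its coding sequence contribute to the rows was not tested.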

How the data were processed

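Per the submitters' processing notes, the tools were Bowtie2 2.3.4.1, Picard, GATK 4.2.6.0, bedtools 2.27.1, MACS2 2.2.7.1 and deepTools 3.5.0, with build hg19. Their roles, and whether libraries were pooled, are not given in the sources used here. Each deposited row of the HNF4A, FOXA1dbd, FOXA1nhaa and FOXA1rraa lists holds a score, a fold enrichment (a ratio), a −log10 p-value, a −log10 q-value and a summit offset from the authors. The deposited FOXA1 lists give a score and no summit, so midpoints were used there. The members, motifs and gene lists were chosen with earlier results of these data known.

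Rows were joined to GENCODE release 44 lifted to GRCh37 with Python 3.11.15, pandas 2.3.3 and pysam 0.24.0. An overlap needed 1 shared base. In 384 members the summit offset pointed beyond the row, and the midpoint was used. There were 62 members narrower than 50 bp. CpG content and motifs were read in the central 200 bp. The code was tested on simulated data. The genes named are the 10 members with the highest −log10 q, the 3 highest genes per list, every liver gene with a member, the highest members of each motif or overlap class, and the lowest member; a few genes that this rule names are not reported here.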

Additional observations from a re-analysis of the deposited data

How the results depend on the processing

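No paired analysis was possible because there is 1 peak list for each construct, with no replicate number in it, and leaving out a replicate was not possible either. Of 182 recomputed values, 132 moved by less than their interval, or by less than 1.5 times for counts of rows or genes, and 50 moved further; the causes were not tested beyond what each setting's construction shows.

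A distance of 500 bp gave 41.9% of protein-coding genes, 1.47% of members with an HNF4-type core, 1.41% with a forkhead core, 68.7% CpG-rich, 0.872% with FOXA1nhaa and 0 olfactory receptor genes. A distance of 2500 bp gave 51.1% of genes, 1.95%, 2.13%, 50.2% and 1.39% for the same 4 shares, a median fold of 5.99 and 5 olfactory receptor genes. Starts of protein-coding transcripts alone gave 44.2% of genes, 1.48% forkhead core, 70.5% CpG-rich, 0.731% FOXA1nhaa, 0.0176% FOXA1dbd and 0.141% FOXA1rraa. Asking for an overlap of 50% of the shorter row before FOXA1 counted gave 1.49% FOXA1nhaa, 0.297% FOXA1dbd and 0.650% FOXA1rraa. Asking for no FOXA1 row within 1000 bp gave 40.8% of genes, 0.717% FOXA1nhaa, 0.107% FOXA1rraa and 0 olfactory receptor genes. The down-sampled FOXA1 list gave 60.2% CpG-rich, 1.99% FOXA1nhaa, 0.849% FOXA1dbd and 1.12% FOXA1rraa. An overlap of 50% for the construct rows gave 0.469% FOXA1nhaa and 0.112% FOXA1rraa. A window of 100 bp gave 1.04% HNF4-type core, 0.805% forkhead core and 57.8% CpG-rich.

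Keeping the top 50% of HNF4A rows by −log10 q gave 7392 members, 29.8% of genes, 1.98% with an HNF4-type core and a median fold of 8.36. The gene lists then had 6 liver, 34 respiratory chain, 33 mitochondrial ribosomal, 21 cytosolic ribosomal, 15 proteasome, 9 citric acid cycle, 24 autophagy and lysosome, 14 nuclear receptor, 16 fibroblast, 191 zinc-finger and 0 olfactory receptor genes with a member. Of the counts for gene lists under all alternatives, 90 of 104 were within 1.5 times of those reported. Read depth, and thus the smallest site that could have been listed for each construct, is unknown.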

Other observations

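The following descriptions were chosen after the data were seen. Ranked by how much more often they stood at member centres than in windows 400 bp away, the leading 8-letter words among 7775 words found in at least 100 members were mostly forms of the AP-1 site or of the right part of the HNF4-type core. ATGAGTCA was in 256 members (1.79%) with a ratio of 4.70, AAGGTCCG in 116 (0.812%) with a ratio of 4.07 and CTGACTCA in 402 (2.82%) with a ratio of 3.71. CGAAGTCC, AAGTCCGG and AAAGTCCG hold a CpG and part of the core, and had ratios of 3.15, 3.11 and 2.92. CTTTGACC, the reverse strand of GGTCAAAG, was in 185 members (1.30%) with a ratio of 3.06.

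Members were unevenly spread over the chromosomes. On the X chromosome 146 of 868 protein-coding genes had a member (16.8%, 14.5 to 19.5), and on the autosomes the share ran from 33.6% on chromosome 21 to 54.3% on chromosome 15. CpG-rich promoters made up 62.1% on the X chromosome, 56.8% on chromosome 21 and 76.0% on chromosome 15. FOXA1 rows near starts were also less common on the X chromosome, at 8.41% (6.74 to 10.4) of its genes against 24.5% of all. On chromosome 19, by contrast, 45.5% of 1480 genes had a member and 7.23% had a FOXA1 row. Copy number and read mappability were not measured here, and their part in these shares was not tested.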
